A study of Mus musculus with 479 samples.

Results

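Cholesterol synthesis, uptake and export genes were followed in mice that carried 1 modified copy of Dchs1 or Fat4, each a gene for a very large cadherin on the cell surface. The set held 28 of the 24475 genes in the count tables and was chosen by function, from known roles in sterol metabolism. It comprised 18 enzymes of cholesterol synthesis, 4 regulators of the pathway, 3 genes of uptake and transport inside the cell, and 3 genes that answer to sterol excess. Messenger RNA had been sequenced from heart, kidney, liver and lung, in 479 libraries. In each line and tissue, 30 heterozygous (Het) libraries were set against 30 wild-type (WT) ones, except in Dchs1 liver with 29 Het libraries. The tested groups were Dchs1+/- mice and Fat4+/- mice, made with VelociGene technology, and their references were WT littermates. All groups shared the C57BL/6NTac background. The design text also speaks of homozygous mice, whereas every library label used here reads Het or WT. The way in which the alleles were modified is not given in the sources used here, nor are age, sex, litter or batch. No label says whether each library was a different mouse, and p-values here reflect library-to-library spread alone, part of which may be technical.

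Cells build cholesterol from acetyl-CoA through mevalonate, the branched isoprenoids, squalene and lanosterol. When sterol in the endoplasmic reticulum is low, Scap escorts the transcription factor SREBP2 (gene Srebf2) to the Golgi, where it is cut and freed to switch on the synthesis enzymes and uptake of lipoprotein. Insig1 and Insig2 hold Scap back when sterol is plentiful, and the liver X receptors (LXR) then raise export pumps such as Abca1 and Abcg1. Liver is the main site of cholesterol synthesis for the circulation, while lung cells use cholesterol in surfactant.

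The targeted genes were lower in each Het group. In the Dchs1 line, Dchs1 itself changed by -1.10 (heart), -1.19 (kidney), -1.14 (liver) and -1.24 (lung) on the log2 scale, and Fat4 in its own line by -0.95, -1.07, -1.03 and -0.98 in the same order. Every Het library lay below the WT median of its targeted gene. Each library held between 10720364 and 32282525 reads assigned to genes (median 18978025). The 6 markers of each tissue summed to at least 19500 TPM (transcripts scaled to a fixed total after allowing for length) in every library of that tissue. Library numbers in the labels fell into stretches separated by gaps in 7 of the 8 comparisons, and these stretches, as a covariate or with the longest alone, served as the only stand-in for a batch. By their correlation with the others, 5 libraries of Dchs1 lung (3 Het, 2 WT) and 5 of Fat4 liver (2 Het, 3 WT) stood apart.

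The sterol genes differed widely in level between normal tissues. Over the 60 WT libraries of each tissue, the median TPM, which allows for transcript length, was highest in lung for 14 of the 28 genes, in liver for 9 and in kidney for 5, and in heart for 0. Fdft1, squalene synthase and the first enzyme committed to sterols, had a median of 33.9 TPM in lung (23.3 to 43.1), 25.3 TPM in liver (6.24 to 46.3), 18.7 TPM in heart (9.13 to 23.3) and 6.02 TPM in kidney (3.32 to 9.09). The ranges of lung and liver overlapped, as did those of liver and heart, whereas every heart library lay above every kidney library. Sqle, squalene epoxidase, was the next enzyme in the chain but kept a different order, with medians of 30.9 TPM in lung, 12.5 TPM in kidney, 7.92 TPM in liver and 0.425 TPM in heart. Insig2 stood at a median of 341 TPM in liver (188 to 1440), above every library of lung, heart and kidney, whose medians were 39.9, 21.1 and 20.1 TPM. Npc2, a soluble sterol carrier of the lysosome, reached 1590 TPM in lung (1090 to 2010) and at most 85.9 TPM in any library of the other tissues.

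Promoter sequences are shown for 5 genes whose levels are described below, so that matches to the motifs searched can be seen beside the values. The searched and printed windows are the 250 bases before the annotated start, on the sense strand, from RefSeq (GRCm38.p6), and 22 of the 28 genes had one. Capitals mark matches to TCACNCCAC, a form of the sterol regulatory element, or to CCAAT, the NF-Y box, on either strand, so that a CCAAT box may read ATTGG. Hmgcs1 (chr13:119690101-119690350, plus strand) is shown because it held the only TCACNCCAC match among the 22 genes, 137 to 129 bases before its start, and 3 CCAAT boxes. Idi1 (chr13:8885356-8885605, plus strand) and Msmo1 (chr8:64733579-64733828, minus strand) are shown as genes with large falls, in kidney and in liver. Insig1 (chr5:28071162-28071411, plus strand) and Dhcr7 (chr7:143822917-143823166, plus strand) are shown because each moved in opposite directions in heart and liver.
Hmgcs1: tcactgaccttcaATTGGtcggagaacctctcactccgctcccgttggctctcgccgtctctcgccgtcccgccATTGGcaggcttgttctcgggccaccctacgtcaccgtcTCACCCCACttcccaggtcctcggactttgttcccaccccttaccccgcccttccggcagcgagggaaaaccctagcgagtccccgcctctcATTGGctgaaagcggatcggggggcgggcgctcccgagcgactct
Idi1: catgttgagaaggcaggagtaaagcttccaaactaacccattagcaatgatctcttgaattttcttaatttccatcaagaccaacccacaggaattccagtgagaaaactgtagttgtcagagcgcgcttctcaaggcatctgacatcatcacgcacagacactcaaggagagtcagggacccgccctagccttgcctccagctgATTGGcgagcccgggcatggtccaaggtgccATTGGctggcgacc
Msmo1: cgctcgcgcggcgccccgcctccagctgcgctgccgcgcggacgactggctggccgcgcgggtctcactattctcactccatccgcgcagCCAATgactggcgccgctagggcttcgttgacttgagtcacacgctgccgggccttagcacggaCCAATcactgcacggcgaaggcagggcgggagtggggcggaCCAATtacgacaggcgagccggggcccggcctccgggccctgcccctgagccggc
Insig1: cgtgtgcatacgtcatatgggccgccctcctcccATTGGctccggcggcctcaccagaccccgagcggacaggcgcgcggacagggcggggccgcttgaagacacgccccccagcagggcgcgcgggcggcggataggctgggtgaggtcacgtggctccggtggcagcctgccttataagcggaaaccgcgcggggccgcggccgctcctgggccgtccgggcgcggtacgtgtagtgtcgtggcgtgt
Dhcr7: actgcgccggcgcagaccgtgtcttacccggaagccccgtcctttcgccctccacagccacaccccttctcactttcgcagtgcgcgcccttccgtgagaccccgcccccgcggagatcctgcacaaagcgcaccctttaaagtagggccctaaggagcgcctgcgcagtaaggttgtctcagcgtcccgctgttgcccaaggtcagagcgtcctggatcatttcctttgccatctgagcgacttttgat

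In these 5 windows no matches overlapped, and the printed Dhcr7 window, the most upstream of 3 for that gene, held none, while another of the 3 held 2 CCAAT boxes. Across the 22 genes, 19 had a CCAAT match in at least 1 window, as did 37.5% of all 27025 genes with a window. The TCACNCCAC match was present in 1 of 22, against 1.22% of all genes. Other forms of the sterol regulatory element, and bases outside these windows, were not searched. An LXR-type direct repeat, GGTNA and GGTCA with any 5 bases between, was found in Abca1 alone (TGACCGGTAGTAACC read along the gene, chr4:53159948-53159962, minus strand), inside the annotated gene and 67 to 53 bases before the start used here, and in 0.189% of all genes. A match is a string of letters and does not show binding.

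Liver of Dchs1 heterozygotes held the most changed sterol genes. Of the 28 genes, 18 fell and 5 rose at a Benjamini-Hochberg adjusted p under 0.05 in edgeR's quasi-likelihood test, where 49.8% of the 12526 genes tested were called (25.4% lower, 24.3% higher). Of the 18 synthesis enzymes, 14 fell and 1 rose. Their median log2 fold change was -0.65, against -0.004 over all genes tested. In bulk tissue, fewer cells of a type and less RNA per cell cannot be told apart.

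The early mevalonate enzymes fell in Dchs1 Het liver. Hmgcs1, which makes HMG-CoA, had a lowest, median and highest level of 38.4, 61.9 and 105 CPM (counts scaled to library size) in Het livers, against 48.7, 106 and 281 CPM in WT livers. Its log2 fold change was -0.85 ± 0.114 (SE, adjusted p = 8.72e-09), and every Het library lay below the WT median although the ranges overlapped. Acat2, which joins acetyl-CoA units, fell by 0.68, and Idi1 and Fdps, which build the isoprenoid chain, by 0.86 and 0.60. Mvk, which phosphorylates mevalonate, and Mvd, which decarboxylates mevalonate diphosphate, fell by 0.62 and 0.85. Pmvk, the kinase between Mvk and Mvd, stood apart from them at -0.07 ± 0.0523 and was not called.

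Squalene and lanosterol steps fell as well. Fdft1 (identifier 14137, chromosome 14, 63145150 to 63181687) had 11.4, 22.3 and 38.0 CPM (lowest, median, highest) in Het livers, against 14.5, 38.9 and 65.8 CPM in WT livers. Its log2 fold change was -0.70 ± 0.115 (adjusted p = 8.54e-07), and all 29 Het libraries lay below the WT median, while the ranges overlapped widely. Sqle fell by 0.98 ± 0.171 and Cyp51, which demethylates lanosterol, by 0.82 ± 0.107. Lss, lanosterol synthase between the last 2 of these, was at 0.09 and was not called.

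Msmo1, the methylsterol oxidase after Cyp51, had the largest fall among the enzymes. Its levels were 12, 16.6 and 33.9 CPM in Het livers, against 14.5, 39.9 and 89.5 CPM in WT livers, and the log2 fold change was -1.06 ± 0.131 (adjusted p = 8.7e-10, below the WT median in 29 of 29). Nsdhl, which works with Msmo1 to strip the same methyl groups, fell by 0.77 ± 0.102. Sc5d, the sterol desaturase, Tm7sf2, a sterol reductase, and Ebp, a sterol isomerase, fell by 0.52, 0.39 and 0.13, and the last of these calls was lost within the longest stretch of library numbers (-0.07, adjusted p = 0.294). Hsd17b7, the ketosteroid reductase of the same steps, was at 0.19 ± 0.0901 and was not called by edgeR (adjusted p = 0.0688), though DESeq2 called it (0.20, adjusted p = 0.0495).

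Dhcr7, which reduces 7-dehydrocholesterol to cholesterol, went the other way. It had 20.2, 29.1 and 36.8 CPM in Het livers, against 17.7, 23.3 and 30.9 CPM in WT livers, a rise of 0.30 ± 0.0518 (adjusted p = 1.77e-06). Of 29 Het libraries, 27 lay above the WT median and 7 above every WT library.

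Both Insig genes changed in liver, in opposite directions. Insig1 had 17.3, 31.1 and 74.3 CPM in Het livers, against 26.7, 65.8 and 167 CPM in WT livers, a fall of 1.08 ± 0.139 (adjusted p = 3.1e-09). Insig2, whose liver transcript is known to rise in fasting, had 701.5, 1122 and 2181 CPM in Het livers, against 277, 447 and 2077 CPM in WT livers. Its rise of 1.15 ± 0.144 (2.22-fold, adjusted p = 1.39e-09) placed all 29 Het libraries above the WT median, but a WT library at 2077 CPM reached into the top of the Het range. Srebf2 itself fell by 0.43 ± 0.0656 and Scap rose by 0.29 ± 0.0522.

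Among the transport genes, Stard4, a cytosolic carrier that moves cholesterol between membranes, had the largest change of all 28 genes in any comparison. Its levels were 3.5, 7.40 and 14.6 CPM in Het livers, against 5.96, 18.8 and 42.8 CPM in WT livers. The log2 fold change was -1.34 ± 0.15 (0.395-fold, adjusted p = 5.77e-11), and no Het library reached the WT median. Npc1, the lysosomal membrane transporter that hands cholesterol onward, rose by 0.37 ± 0.0601 and Npc2 was not called at -0.09. Of the genes that answer to LXR, Abca1 rose by 0.24 ± 0.088, Abcg1 fell by 0.20 ± 0.0821 and Mylip, a ubiquitin ligase, was not called by edgeR at 0.15 (adjusted p = 0.0646) but was by DESeq2 (0.16, adjusted p = 0.0436). The Abca1 call was lost within the longest stretch (0.15, adjusted p = 0.136), and the Abcg1 call under DESeq2 size factors (-0.19, adjusted p = 0.0504).

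**Figure D1:**
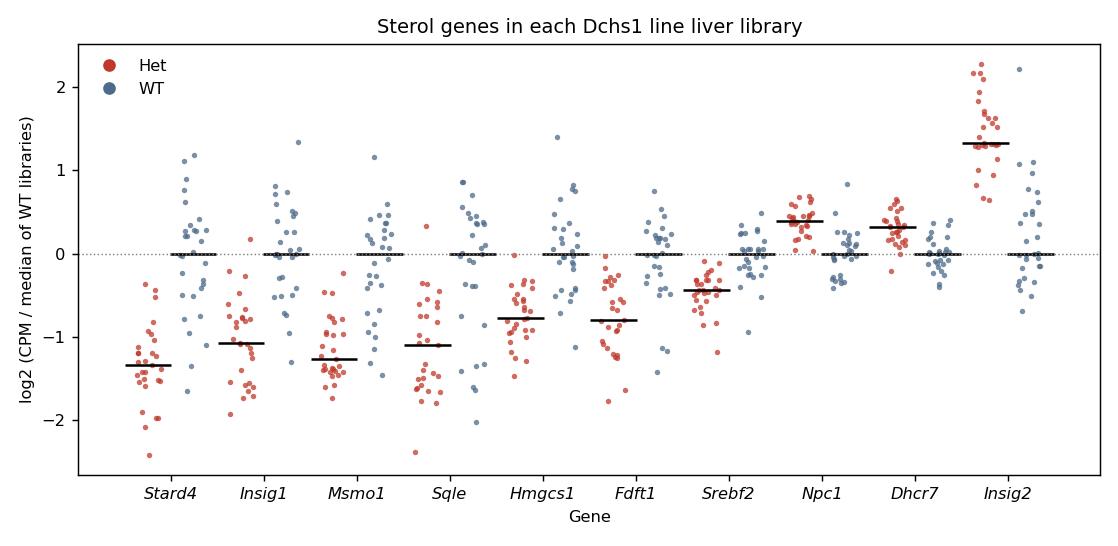
Level of 10 sterol genes in each Dchs1 line liver library, as log2 of CPM over the median of the WT libraries, with Het (red, n = 29) left of WT (blue, n = 30); points are libraries and bars are group medians. Stard4, Insig1, Msmo1 and Sqle sit lowest in Het, Dhcr7 and Npc1 sit above the WT median, and Insig2 stands highest with 1 WT library inside the upper Het range.

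Heart of the same line gave a mixed picture. Of the 28 genes, 11 rose and 7 fell, where 50.2% of the 13304 genes tested were called (26.1% higher, 24.1% lower). The 18 synthesis enzymes split evenly, with 5 higher and 5 lower and a median log2 fold change of -0.07, against 0.004 over all genes tested.

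Fdft1 had the smallest p of the 28 genes in heart. It had 39.7, 50.04 and 61.2 CPM (lowest, median, highest) in Het hearts, against 23.6, 32.01 and 40.5 CPM in WT hearts. Of the 30 Het libraries, 29 lay above every WT library. The log2 fold change was 0.64 ± 0.0441 (1.56-fold, adjusted p = 3.25e-18), and it was 0.65 within the longest stretch of library numbers.

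The other enzymes that rose in Dchs1 Het heart rose by less. Ebp, Mvk, Pmvk and Cyp51 rose by 0.20, 0.19, 0.16 and 0.11, with standard errors of 0.039, 0.0533, 0.0468 and 0.0332. Among the enzymes that fell, Sqle had 0.140, 0.451 and 1.05 CPM in Het hearts, against 0.144, 0.812 and 1.47 CPM in WT hearts, so that its fall of 0.78 ± 0.158 (adjusted p = 3.39e-05) rests on few reads. Sqle uses the squalene that Fdft1 makes, and the pair moved in opposite directions in this tissue.

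Dhcr7 was lower in heart and higher in liver. It had 1.31, 2.169 and 3.04 CPM in Het hearts, against 2.02, 3.44 and 5.46 CPM in WT hearts, a fall of 0.67 ± 0.074 (adjusted p = 3.25e-11), and all 30 Het libraries lay below the WT median. Hsd17b7, Mvd and Hmgcs1 fell by 0.31, 0.20 and 0.15. The Mvd call was lost with no filter on low counts (-0.21, adjusted p = 0.0578). Msmo1, Idi1 and Nsdhl, which fell in liver, were at -0.02, -0.09 and -0.11 in heart and were not called, although Idi1 was called within the longest stretch (-0.10, adjusted p = 0.0329).

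Insig1, which fell in liver, rose in heart. It had 13.96, 27.3 and 44.05 CPM in Het hearts, against 14.7, 16.8 and 35.1 CPM in WT hearts, a rise of 0.57 ± 0.0901 (adjusted p = 3.05e-07). The ranges overlapped, and 28 of 30 Het libraries lay above the WT median. Scap rose by 0.09 and Srebf2 fell by 0.17 ± 0.0297. Insig2 fell by 0.07, a call that was lost within the longest stretch (-0.05, adjusted p = 0.0693).

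Mylip rose by 0.52 ± 0.0734 in heart, with 26.8, 39.5 and 64.8 CPM in Het hearts, against 19.6, 26.7 and 39.8 CPM in WT hearts, and 14 Het libraries lay above every WT library. Npc1 rose by 0.38 ± 0.049, Abcg1 by 0.17 ± 0.0683 and Npc2 by 0.11 ± 0.0334. The Npc2 call was lost in limma on log2(TPM + 1) (0.25, adjusted p = 0.107) and the Abcg1 call with no filter on low counts (0.16, adjusted p = 0.0637). Abca1 was not called in the main fit but was with the stretch as a covariate (0.13, adjusted p = 0.0313).

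**Figure D2:**
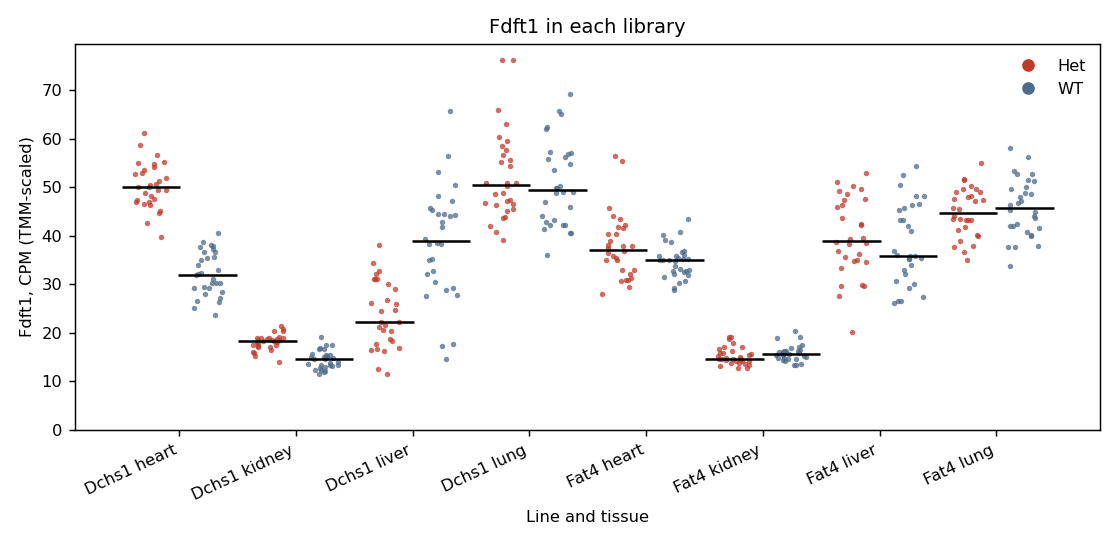
Fdft1 in each library, in CPM, for the 8 line and tissue pairs, with Het (red) left of WT (blue); points are libraries and bars are group medians. In Dchs1 heart 29 of 30 Het points lie above every WT point, in Dchs1 liver the Het points sit lower with wide overlap, and in the Fat4 line the groups overlap in each tissue.

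The contrast between heart and liver was tested as a difference of the Het effects within the Dchs1 line. Labels do not say whether heart and liver libraries came from the same mice. Each library was treated as independent, here and in the Fat4 line. For Fdft1 the effect in heart exceeded that in liver by 1.34 ± 0.125 on the log2 scale (adjusted p = 1.41e-16), and the difference was 1.37 within the longest stretch. Of the 28 genes, 24 differed between the tissues, 20 with a higher effect in heart and 4 with a lower one, where 38.4% of the 14286 genes tested differed (20.1% higher, 18.3% lower). The median difference over the 18 synthesis enzymes was 0.60, against 0.01 over all genes tested.

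Fdft1 was not alone in changing sign. Abcg1, Cyp51, Ebp, Insig1 and Mvk likewise rose in heart and fell in liver, which makes 6 of 28 genes, where 5.20% of the 11592 genes tested in both tissues did so. Dhcr7 and Insig2 fell in heart and rose in liver (4.53% of all genes). Another 4 genes, Hmgcs1, Mvd, Sqle and Srebf2, fell in both tissues (7.41% of all genes), and Npc1 and Scap rose in both (9.05%). For 8 genes that fell in liver, heart gave no call (11.6% of all genes), among them Stard4 and Msmo1, although with the stretch as a covariate heart gave a call for Stard4 (-0.15, adjusted p = 0.00803) and Idi1 (-0.10, adjusted p = 0.0405). The largest differences were those of Insig1 at 1.66 ± 0.168, Fdft1, Insig2 at -1.22 ± 0.145, Stard4 at 1.199 ± 0.172 and Msmo1 at 1.05 ± 0.15.

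**Figure D3:**
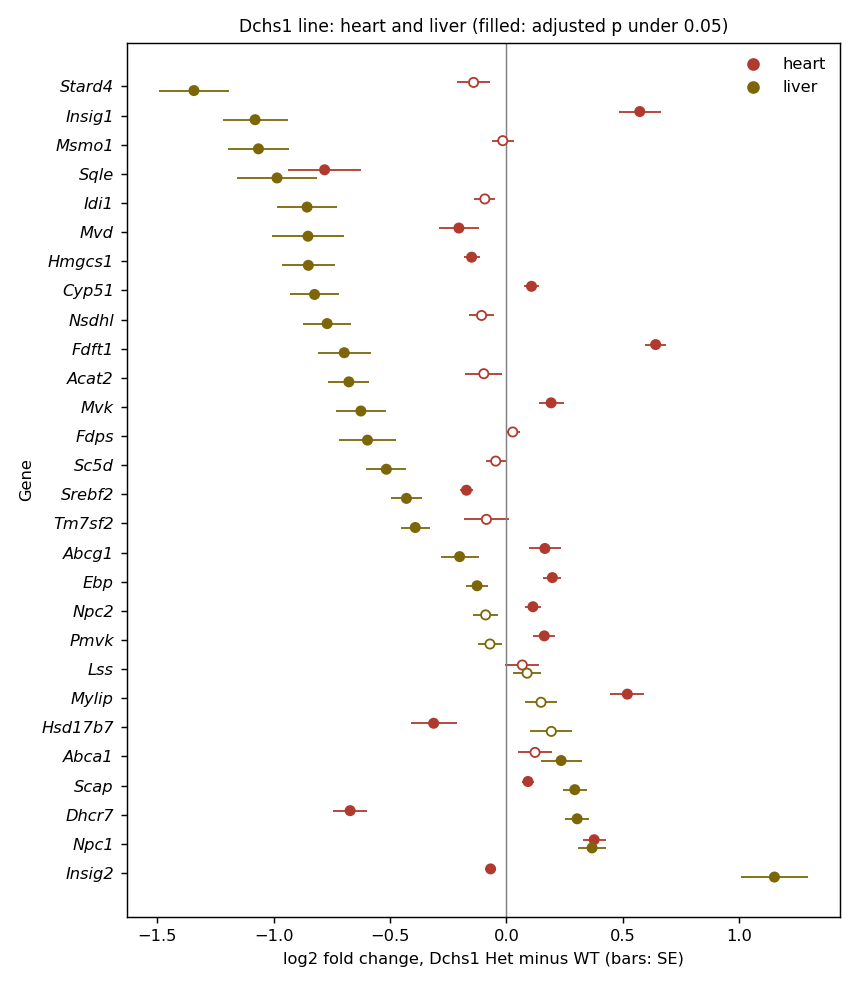
Log2 fold change (Dchs1 Het minus WT) of the 28 genes in heart (red) and liver (olive), with standard errors as bars and filled points where the adjusted p was under 0.05; genes are ordered by the liver value. Fdft1 and Insig1 lie right of 0 in heart and left of 0 in liver, Dhcr7 and Insig2 lie the other way, and Sqle lies left of 0 in both.

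In kidney of Dchs1 heterozygotes early and late enzymes fell, while Fdft1 rose. Of the 28 genes, 12 fell and 7 rose, where 47.2% of the 14142 genes tested were called (23.8% lower, 23.4% higher), and 11 of the 18 enzymes fell and 3 rose. Limma on log2(TPM + 1), under which the median of all genes tested was 0.08, instead gave 6 lower and 8 higher. The share of all genes called under limma is not given here. The enzymes' median log2 fold change was -0.17, against 0.005 over all genes tested.

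Idi1, which isomerises the isoprenoid unit, had the largest fall in kidney. Its levels were 17.3, 24.5 and 43.4 CPM in Het kidneys, against 21.2, 50.3 and 112 CPM in WT kidneys, a fall of 1.11 ± 0.121 (0.465-fold, adjusted p = 2.1e-11). All 30 Het libraries lay below the WT median. Cyp51 had 44.7, 64.0 and 122 CPM in Het kidneys, against 53.7, 123 and 238 CPM in WT kidneys, a fall of 0.84 ± 0.117.

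Mvd, Hmgcs1 and Nsdhl fell by 0.60, 0.57 and 0.50, with standard errors of 0.0576, 0.0984 and 0.0598. Smaller falls were those of Acat2 (0.28), Stard4 (0.27), Sqle (0.25), Sc5d (0.19), Ebp (0.18), Dhcr7 (0.17) and Tm7sf2 (0.14). Of these 7, all but the fall of Acat2 were lost in limma on log2(TPM + 1), with adjusted p-values of 0.131, 0.0998, 0.376, 0.178, 0.481 and 0.6 in the same order. Msmo1, with the largest enzyme fall in liver, stood at -0.01 in kidney, with 6.93, 9.32 and 11.2 CPM in Het kidneys and 7.42, 9.65 and 11.6 CPM in WT kidneys.

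Fdft1 rose in kidney as in heart. It had 13.97, 18.4 and 21.5 CPM in Het kidneys, against 11.5, 14.7 and 19.1 CPM in WT kidneys, a rise of 0.32 ± 0.0412 (adjusted p = 1.92e-09). Of 30 Het libraries, 29 lay above the WT median and 5 above every WT library. Pmvk and Lss each rose by 0.19. All 3 genes that answer to LXR rose, Mylip by 0.37 ± 0.0985, Abcg1 by 0.27 ± 0.0652 and Abca1 by 0.24 ± 0.105, and Npc1 rose by 0.10. The call of Abca1 was lost with the stretch as a covariate (0.21, adjusted p = 0.0522) and that of Npc1 within the longest stretch (0.08, adjusted p = 0.123). The 4 regulators were not called, with values between -0.07 and 0.12. Fdps (0.11, adjusted p = 0.0615) was called with the stretch as a covariate (0.12, adjusted p = 0.0339), as was Npc2 (0.06, adjusted p = 0.0286).

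Lung of Dchs1 heterozygotes had fewer changes. Of the 28 genes, 5 rose and 6 fell, where 20% of the 15069 genes tested were called (9.60% higher, 10.4% lower), and limma on log2(TPM + 1) gave 2 higher and 6 lower. Without the 5 libraries that stood apart, 6 rose and 8 fell, with the stretch as a covariate 7 rose and 9 fell, and within the longest stretch 6 rose and 9 fell. The 20% belongs to the main fit, and the shares of all genes called under these alternatives are not given here. The enzymes' median was -0.08, against 0.009 over all genes tested.

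Pmvk, the phosphomevalonate kinase, had the largest rise among the enzymes in any comparison. It had 51.6, 96.3 and 173 CPM in Het lungs, against 25.6, 44.2 and 172 CPM in WT lungs, a rise of 0.94 ± 0.134 (1.92-fold, adjusted p = 3.52e-07). All 30 Het libraries lay above the WT median, although 1 WT library reached nearly the top of the Het range. The rise was 0.93 without the libraries that stood apart.

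Mylip rose by 0.67 ± 0.104 in lung, with 33.1, 74.8 and 155 CPM in Het lungs, against 32.1, 47.7 and 79.1 CPM in WT lungs. Dhcr7 fell by 0.50 ± 0.0705, with 5.16, 7.12 and 9.49 CPM in Het lungs, against 6.13, 10.4 and 15.4 CPM in WT lungs. It lay below the WT median in 30 of 30 Het lungs. Idi1, Cyp51, Hmgcs1, Nsdhl and Msmo1 fell by 0.30, 0.25, 0.20, 0.17 and 0.17, and Npc1, Insig2 and Acat2 rose by 0.22, 0.20 and 0.15. Limma on log2(TPM + 1) did not call Hmgcs1, Nsdhl, Npc1, Insig2 or Acat2. Abca1 was not called over all libraries (0.44 ± 0.178, adjusted p = 0.0681) and was called without those that stood apart (0.50, adjusted p = 0.0028), as were Mvd (-0.24, adjusted p = 0.0157) and Fdps (-0.21, adjusted p = 0.0246). Within the longest stretch Stard4 (-0.27, adjusted p = 0.00129) and Npc2 (0.16, adjusted p = 0.022) were called as well. Fdft1 was not called, with 39.2, 50.5 and 76.3 CPM in Het lungs and 36.1, 49.5 and 69.2 CPM in WT lungs.

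Across the 4 Dchs1 tissues, all 28 genes were called in at least 1 tissue, where 85.1% of the 11448 genes tested in every tissue were. In every tissue 4 were called (4.59% of all genes), and 9 were called in both directions (19.5% of all genes).

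The Fat4 line, with the same tissues and group sizes, gave few calls among the sterol genes. In kidney 3 rose and 1 fell, where 17.1% of 14014 genes tested were called (9.21% higher, 7.87% lower), and in liver 2 rose and 1 fell, where 7.15% of 12484 were called (3.64% higher, 3.51% lower). In heart 0 of 28 were called by edgeR, where 1.60% of 13213 genes were called (0.969% higher, 0.628% lower), although 6 had an unadjusted p under 0.05 and DESeq2 called 1 (Mylip, 0.18, adjusted p = 0.0484). In lung 0 of 28 were called by edgeR, where 0.136% of 15415 genes were called (0.110% higher, 0.0259% lower), with 4 at an unadjusted p under 0.05 and 0 called by DESeq2. In all, 22 of the 28 genes were called in 0 Fat4 tissues, as were 77.6% of the 11384 genes tested in each of them.

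Each Fat4 call was small. In liver Dhcr7 rose by 0.18 ± 0.049, with 20.6, 26.6 and 32.9 CPM in Het livers, against 17.6, 23.8 and 28.5 CPM in WT livers. Tm7sf2 fell by 0.26 ± 0.0708 and lay below the WT median in 29 of 30 Het livers, and Lss rose by 0.14 ± 0.0458. All 3 calls were lost in limma on log2(TPM + 1), with adjusted p-values of 0.359, 0.0504 and 0.471, while Acat2 was then called (-0.23, adjusted p = 0.0305). Npc2 was called without the 5 libraries that stood apart (-0.14, adjusted p = 0.0187), and with the stretch as a covariate Npc2 (-0.15, adjusted p = 0.039) and Npc1 (0.18, adjusted p = 0.0458) were called.

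In Fat4 Het kidney, Hsd17b7, Acat2 and Lss rose by 0.17, 0.13 and 0.10 and Abcg1 fell by 0.20 ± 0.0614. With the stretch as a covariate the calls of Acat2, Lss and Abcg1 were lost, with adjusted p-values of 0.0536, 0.106 and 0.0538. Fdft1 was called in 0 Fat4 tissues. Its log2 fold changes were 0.12 ± 0.0507 in heart, -0.05 ± 0.0398 in kidney, 0.05 ± 0.0779 in liver and -0.03 ± 0.0446 in lung, with adjusted p-values of 0.181, 0.412, 0.771 and 0.881.

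**Figure D4:**
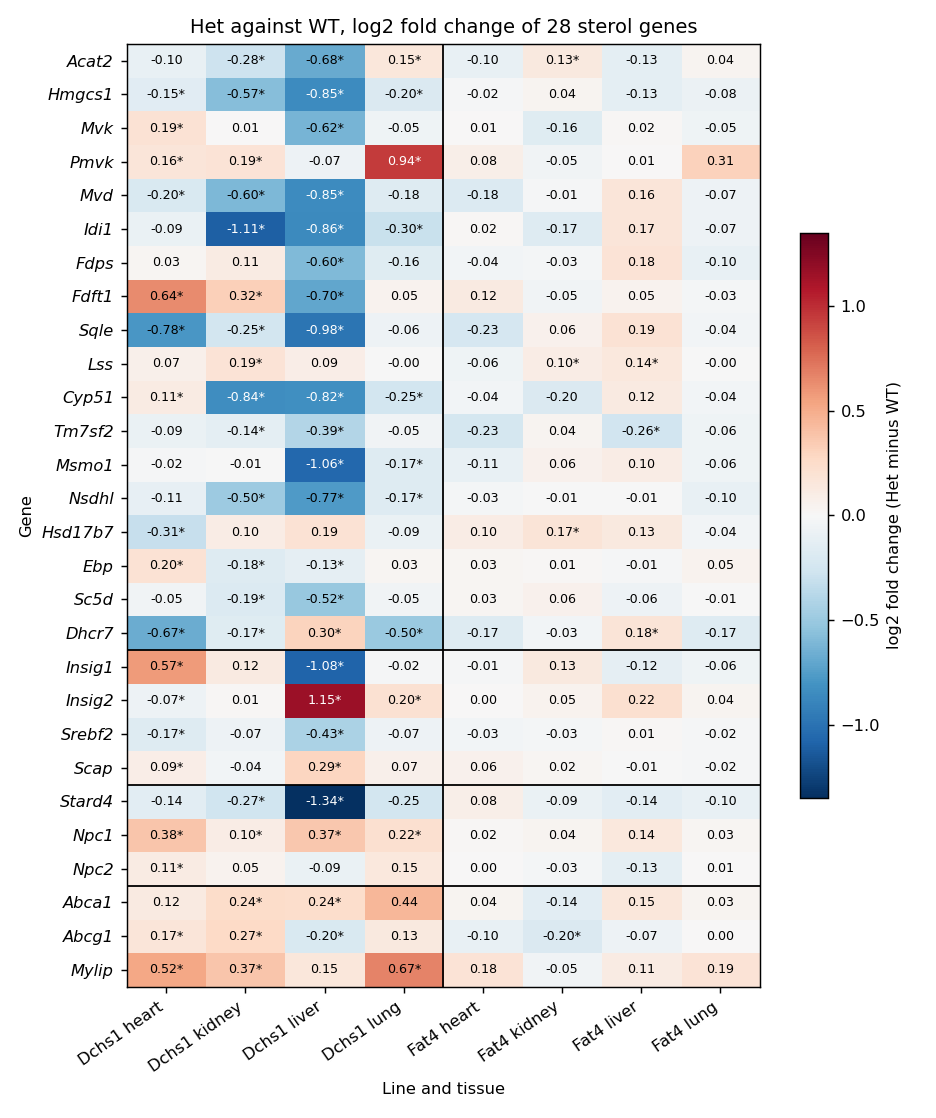
Log2 fold change (Het minus WT) of the 28 genes in the 4 tissues of each line, red where Het is higher and blue where Het is lower; an asterisk marks an adjusted p under 0.05 and lines separate the 18 enzymes, 4 regulators, 3 transport genes and 3 genes that answer to LXR. The Dchs1 liver column is mostly blue with Insig2 red, Fdft1 is red in Dchs1 heart and kidney and blue in liver, and the Fat4 columns hold 7 asterisks.

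Whether the lines differed was tested on the difference of their Het effects (Dchs1 minus Fat4). Library numbers of the lines did not overlap, so a line difference cannot be told apart from one of cohort or batch. The stretch as a covariate was not run for these tests. In liver 18 of 28 genes differed, 3 with a higher and 15 with a lower effect in the Dchs1 line, where 23.6% of 12855 genes differed (12.2% higher, 11.4% lower). Kidney had 15 (5 higher, 10 lower), where 33.5% of 14353 differed (17% higher, 16.5% lower). Heart had 11 (6 higher, 5 lower), where 25.5% of 13623 differed (12.9% higher, 12.6% lower). Lung had 4 (3 higher, 1 lower), where 5% of 15496 differed (1.96% higher, 3.05% lower). Under limma on log2(TPM + 1) the split was 7 higher and 6 lower in kidney and 5 higher and 2 lower in heart. The shares of all genes under limma are not given here. For Fdft1 the difference was 0.51 ± 0.0679 in heart, 0.38 ± 0.0578 in kidney, -0.73 ± 0.14 in liver and 0.07 ± 0.0755 in lung, the last not called (adjusted p = 0.754).

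Within the Fat4 line, the effect on Fdft1 in heart minus that in liver was 0.07 ± 0.0944 (adjusted p = 0.848). Of the 28 genes, 1 differed between these tissues, Dhcr7 at -0.35 ± 0.0939 (adjusted p = 0.026), where 1.93% of 14220 genes differed (0.661% higher, 1.27% lower). The Dhcr7 effect was thus lower in heart than in liver in both lines.

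Fdft1 also varied among WT libraries, where no genotype differed. Its log2(CPM + 0.5) was set against that of Hmgcs1, Idi1, Sqle, Cyp51, Msmo1 and Insig1 in each of the 8 WT groups of 30 libraries, 48 relations in all, of which 22 had an adjusted p under 0.05 for Pearson's r by 100000 permutations. In WT liver all 6 genes rose with Fdft1 in both lines. The relation to Msmo1 was closest, with r = 0.87 and Spearman's rho = 0.87 in the Dchs1 line and r = 0.83 and rho = 0.84 in the Fat4 line, each at the smallest p that the permutations can give (1e-05; adjusted 4.4e-05 for r and 4e-05 for rho). Leaving out the 2 libraries farthest from the median of Msmo1 gave r = 0.89 and 0.80, and the longest stretch gave 0.88 and 0.83.

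Fewer relations passed in WT heart and kidney. In heart of the Dchs1 line 1 of 6 passed, with Insig1 (r = 0.69, rho = 0.72, r = 0.69 without the 2 farthest libraries, p = 1e-05 and 2e-05, adjusted 4.4e-05 and 6.9e-05), and in heart of the Fat4 line 0 passed by r, although Sqle did by rho (0.45, adjusted p = 0.0307). In Dchs1 WT kidney Fdft1 fell as Sqle, Idi1 and Hmgcs1 rose, with r = -0.65, -0.64 and -0.51 and rho = -0.61, -0.59 and -0.53. Their adjusted p-values for r were 0.000373, 0.000373 and 0.00953, and r without the 2 farthest libraries was -0.52, -0.56 and -0.49. The relation with Insig1 in that group (r = 0.44, adjusted p = 0.032) rested on 2 libraries, as r was 0.23 without them. In Fat4 WT kidney 0 of 6 passed by r, and Msmo1 passed by rho alone (-0.44, adjusted p = 0.0369).

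In WT lung 5 of 6 passed in the Fat4 line, Sqle first (r = 0.80, rho = 0.77, adjusted p = 4.4e-05 and 4e-05, r = 0.73 without the 2 farthest libraries), and 0 passed in the Dchs1 line. Idi1 among these 5 did not pass by rho (adjusted p = 0.0611). The differences in r between tissues and lines were not tested, and the libraries of a group share their scaling.

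**Figure D5:**
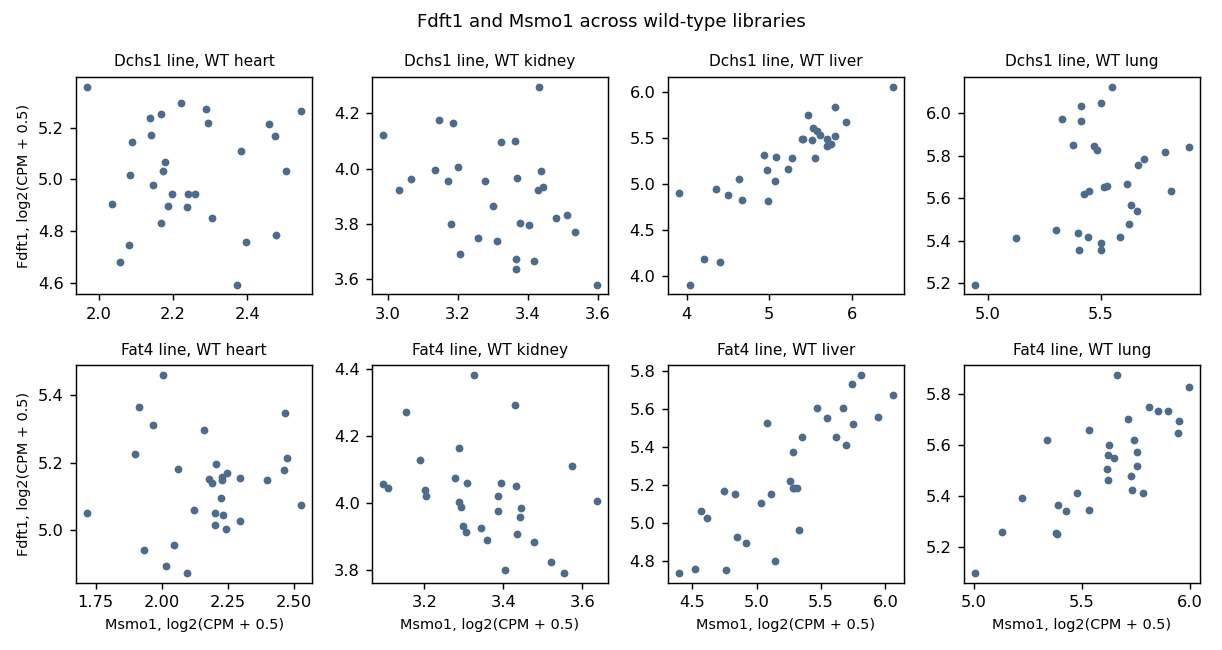
Fdft1 against Msmo1 in WT libraries, both as log2(CPM + 0.5), 1 panel for each line and tissue, each point a library (n = 30 per panel). Points rise together in liver of both lines (r = 0.87 and 0.83) and in Fat4 lung (r = 0.76), and show no such rise in heart.

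Related sterol genes outside the 28 were read from a list of 30 others. In Dchs1 liver 10 of 29 measured fell and 3 rose, a share called below the 49.8% of all genes tested, and among those with the smallest p were Srebf1, the lipogenic sister of Srebf2 (-1.12 ± 0.127), the lipoprotein receptor Lrp1 (-0.60 ± 0.0749) and Acss2, which makes acetyl-CoA (-0.40 ± 0.0546). Srebf1 had 7.06, 12.9 and 17.9 CPM in Het livers, against 8.45, 26.1 and 67.7 CPM in WT livers. In Dchs1 heart 7 of 27 rose and 5 fell, again a share below that of all genes (50.2%), led by Srebf1 (-0.59 ± 0.0515), the sterol hydroxylase Cyp27a1 (0.56 ± 0.0644), Tmem97 (0.33 ± 0.0572) and the lysosomal lipase Lipa (0.27 ± 0.0486).

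In Dchs1 kidney 9 of 28 rose and 7 fell, where 47.2% of all genes were called, with Apoe (0.49 ± 0.068), Tmem97 (0.30 ± 0.0451) and Aacs (-0.55 ± 0.0855) among those with the smallest p. In Dchs1 lung 2 of 27 rose and 1 fell, where 20% of all genes were called, namely the receptor Vldlr (0.39 ± 0.0909), Cyp27a1 (0.26 ± 0.0663) and Aacs (-0.21 ± 0.0663). In the Fat4 line Srebf1 fell in heart (-0.22 ± 0.0522), 2 of 28 rose in kidney, Cyp27a1 among them (0.17 ± 0.0593), Vldlr and Lcat fell in liver (-0.54 ± 0.115 and -0.08 ± 0.0244), and lung gave 0 calls by edgeR, with 0 of 27 at an unadjusted p under 0.05.

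Some genes that follow feeding also changed in the Dchs1 groups. Of a list of fasting-induced genes, 8 of 10 rose and 0 fell in liver, where 24.3% of all genes tested rose. The summed level of the list was 11800 to 23500 TPM in Het livers and 6680 to 27200 TPM in WT livers. Cyp4a14 and Cyp4a10 weigh most in that sum, with medians of 6923 and 5238 TPM in Het livers and 3165 and 2441 TPM in WT livers. In kidney, where 23.4% of all genes rose, 8 of 9 did (7070 to 13100 TPM in Het kidneys and 2140 to 11400 TPM in WT kidneys), in lung 5 of 7 rose (9.60% of all genes), and in heart 4 of 7 rose and 1 fell (26.1% and 24.1% of all genes). In the Fat4 line 5 of 9 rose in kidney (9.21% of all genes) and 1 of 10 in liver (3.64%), while heart and lung gave 0 calls by edgeR among 7 each, with 4 and 2 at an unadjusted p under 0.05. Of lipogenic genes that rise with feeding, 4 of 9 fell and 0 rose in Dchs1 liver (25.4% of all genes fell), among them Scd1 (-1.48 ± 0.159) and Srebf1. In Dchs1 heart 4 of 10 fell and 0 rose (24.1% of all genes fell). Srebf1 stands in this list and among the 30 sterol genes. In Dchs1 kidney 1 of 9 lipogenic genes rose and 1 fell (23.4% and 23.8% of all genes), and in Dchs1 lung 0 of 10 rose and 1 fell (9.60% and 10.4%). In Fat4 kidney 2 of 9 rose and 0 fell (9.21% and 7.87%), and in Fat4 liver 2 of 9 rose and 1 fell (3.64% and 3.51%). In Fat4 heart 0 of 10 rose and 1 fell (0.969% and 0.628%), and Fat4 lung gave 0 calls among 10 by edgeR, with 1 at an unadjusted p under 0.05. Of the clock genes, 6 were higher and 3 lower of 12 in Dchs1 heart, 3 and 5 of 11 in kidney, 3 and 4 of 11 in liver and 5 and 1 of 12 in lung, against 50.2%, 47.2%, 49.8% and 20% of all genes called in the same order. Their part in the sterol changes was not tested.

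Markers of other cell types were compared in the same way. The summed level of 10 macrophage markers overlapped in Dchs1 liver (112 to 300 TPM in Het livers and 104 to 289 TPM in WT livers). Of the 10, 2 were higher and 0 lower, where 24.3% of all genes rose and 25.4% fell. The list's median log2 fold change was -0.04, with 6 of 10 below 0, whereas Cd163, a scavenger receptor of macrophages and 1 of the 2 called, rose by 0.83 ± 0.136. Adipocyte markers were near 0 in Dchs1 liver (at most 0.236 TPM in Het livers and 1.05 TPM in WT livers). Among kidney markers the summed level was 19500 to 42300 TPM in Dchs1 Het kidneys, against 29100 to 57500 TPM in WT kidneys. Of the 6, 3 were lower and 1 higher, where 23.8% of all genes fell and 23.4% rose. Kap (-0.74 ± 0.0685) and the proximal tubule transporter Slc34a1 (-0.63 ± 0.0629) were among those that fell. Of 5 liver markers measured in Dchs1 kidney, 4 were higher and 1 lower. Their sum was 45.1 to 214 TPM in Het kidneys and 54.2 to 301 TPM in WT kidneys. Ttr, the 1 that was lower, had the highest median of the 5, at 68.1 TPM in Het kidneys and 173 TPM in WT kidneys, and weighs most in that sum. Of 5 adipocyte markers measured in Dchs1 kidney, 1 was higher and 1 lower. Cfd had 7.87, 59.6 and 101.7 CPM in Het kidneys, against 5.86, 32.6 and 73.7 CPM in WT kidneys. Ucp1 went the other way, with 0.0956, 2.61 and 16.05 CPM in Het kidneys, against 0.173, 5.36 and 20.9 CPM in WT kidneys.

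Markers of steroid-making adrenal cells, which use much cholesterol, were high in some Dchs1 Het kidneys. Star, which carries cholesterol into mitochondria, had 0.943, 1.54 and 16.6 CPM in Het kidneys, against 0.617, 1.26 and 1.79 CPM in WT kidneys, a rise of 1.01 ± 0.233. Cyp11b1, an adrenal cortex enzyme, was at 0 in 26 of 30 Het kidneys and in 28 of 30 WT kidneys, and reached 6.63 CPM in Het kidneys and 0.097 CPM in WT kidneys. Some Fat4 Het kidneys were high as well. Star reached 6.24 CPM in Fat4 Het kidneys and 2.12 CPM in their WT kidneys, and Cyp11b1 reached 1.14 and 0 CPM. Of the list, 2 were tested in Fat4 kidney and 0 were called by edgeR, with 2 at an unadjusted p under 0.05. In Dchs1 kidney the summed list of 8 such markers overlapped (40.1 to 84.3 TPM in Het kidneys and 32.6 to 75.3 TPM in WT kidneys). Most of that sum was Fdx1 alone (39.1 to 71.6 TPM in Het kidneys and 32.3 to 74.5 TPM in WT kidneys). Of the 8 markers, 2 passed the filter there, Star, which rose, and Fdx1, which fell (median 38.3 CPM in Het kidneys and 42.8 CPM in WT kidneys). In Dchs1 heart, 3 of 6 heart markers fell and 0 rose, where 24.1% of all genes fell and 26.1% rose. The sum of these markers was 21300 to 30300 TPM in Het hearts and 23400 to 33000 TPM in WT hearts. Whether these differences took part in the sterol changes was not tested.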

How the data were processed

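Messenger RNA from heart, kidney, liver and lung of Het and WT mice of 2 lines was sequenced as strand-specific libraries, per the labels' protocols. Per the submitters' processing notes, bcl2fastq 2.17 and FastQC were used with the build GRCm38. Aligner and counter: not given in the sources used here. Expression was deposited by the authors as estimated counts, with 15.52% (Dchs1) and 15.69% (Fat4) of values not whole, and as TPM for the same libraries, which keep no depth. Reads shared by near-identical genes can be divided wrongly by such estimates. All 239 and 240 columns matched a labelled library by name, and 0 were left over.

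After rounding, counts entered edgeR 4.0.16 (R 4.3.3) with TMM scaling, filterByExpr (minimum count 10 and minimum total 15) and the quasi-likelihood F test, each comparison on its own libraries, with p-values adjusted by Benjamini-Hochberg over all genes tested and a threshold of 0.05. All 28 genes passed the filter in each comparison. Interactions were fitted over the 4 groups concerned. A standard error is the size of the log2 fold change divided by the root of F. CPM are TMM-scaled. Alternatives were DESeq2 1.42.0, its size factors in edgeR, no filter, limma 3.58.1 on log2(TPM + 1) and log2(TPM + 0.1) (at least 1 TPM in 20 libraries, so that a fold change of a low gene is understated), the number stretch (gaps over 3) as a covariate, the longest stretch alone, and fits without libraries over 5 median absolute deviations below in median correlation. The fits were checked on simulated counts.

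The genes and lists were chosen with earlier results of these data known. All 28 genes are named; of the other lists, up to 4 sterol genes and up to 3 marker genes with the smallest p among those called are named per comparison, and some of these are not reported here. No 2 libraries of a group agreed within sampling noise (lowest chi-square per gene 3.48). Lists are described by counts and medians only.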

Additional observations from a re-analysis of the deposited data

Results flagged for a closer look

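Some Het effects differed between groups under the same contrast, each by a test of the difference itself (edgeR, adjusted p under 0.05). Between heart and liver, 24 of the 28 genes differed within the Dchs1 line (38.4% of all genes tested), and 1 did within the Fat4 line (1.93%). Between the lines, 11 differed in heart, 15 in kidney, 18 in liver and 4 in lung.

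Single genes are given where the difference exceeded 1 on the log2 scale, and Fdft1 in each tissue where it was called. Heart minus liver in the Dchs1 line gave 1.34 for Fdft1, 1.199 for Stard4, 1.66 for Insig1, 1.05 for Msmo1 and -1.22 for Insig2. The Dchs1 effect minus the Fat4 effect on Fdft1 was 0.51 in heart, 0.38 in kidney and -0.73 in liver. In liver that difference was -1.18 for Stard4, -1.001 for Mvd, -1.16 for Sqle, -1.01 for Idi1 and -1.14 for Msmo1.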

How the results depend on the processing

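No paired analysis was possible because each library number occurs once and replicate numbers were given in accession order. Counts of called genes in the Dchs1 line stayed within 1.5 times under every alternative run. In the Fat4 line, DESeq2 called 1 gene in heart where edgeR called 0. Fat4 kidney (4) gave 2 under limma on log2(TPM + 1), 2 on log2(TPM + 0.1) and 1 with the stretch as a covariate. Fat4 liver (3) gave 1 under each limma scale, 5 with the stretch as a covariate and 5 within the longest stretch. Under limma, Fat4 heart against liver (1) gave 0, the lines in heart (11) gave 7 with 26 genes measured, and the lines in lung (4) gave 1. The shares of all genes called under these alternatives are not given here. The causes were not tested. Over single genes and all settings, 1408 values kept their call and direction, 60 lost and 39 gained a call, 47 changed sign without a call, and 0 reversed a call. The Fdft1 heart and liver contrast ran from 1.31 to 1.79 in the Dchs1 line, and 22 to 28 of the 48 relations passed. Fits that left out 1 replicate at a time were not run, as groups held 29 or 30 libraries. Depth limits the genes at a few CPM or less, such as Dhcr7 and, lower still, Sqle in heart.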
